A study of Mus musculus with 2 samples.

Results

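The genes described here are 10 regulators of growth arrest and cell growth: the cyclin-dependent kinase (CDK) inhibitor genes Cdkn1a (p21) and Cdkn1b (p27), the stress genes Gadd45a, Gadd45b and Gadd45g, the antiproliferative gene Btg2, the proto-oncogene Myc, and Trp53 with its partners Mdm2 and Ccng1. They were chosen by name, with their ratios in these data already known, and all probe sets annotated with exactly 1 of these symbols were taken. This gave 18 of the 34945 probe sets with 1 gene symbol, for 9 of the 10 genes and of 18193 in all. No probe set was matched to Trp53. All ratios of these genes are therefore given as a description, with no test.

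Signals came from 1 array for each of 2 samples of peritoneal macrophages of C57BL/6J mice. Both held cells collected 3 days after an injection of thioglycolate (TG), an irritant that recruits macrophages to the peritoneal cavity. One was treated with LPS+CPN and the other with LPS+CPN+GGOH, so LPS and CPN were common to both and GGOH was the difference. LPS is lipopolysaccharide, a bacterial ligand of a Toll-like receptor, GGOH is geranylgeraniol, the alcohol of an isoprenoid that is attached to some proteins as a lipid anchor, and CPN is named in the labels by this abbreviation only. The sources used here state no dose, no treatment time and no number of animals per sample, and no array of untreated cells, or of cells given LPS without CPN, was analysed here. The stated purpose was to find genes that differ when GGOH is added to LPS+CPN. There were no replicates, so no value has a standard error or p-value, and every difference is one between these 2 arrays.

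As background, p21 and p27 bind cyclin-CDK complexes and hold cells before DNA replication. The transcription factor p53 activates the genes of p21, GADD45A, BTG2 and cyclin G after DNA damage, and it activates the gene of MDM2, the ubiquitin ligase that targets p53 for degradation. GADD45 proteins bind p21, PCNA and the kinase MAP3K4. MYC, with its partner MAX, activates genes of ribosome production and metabolism, and several of these genes, Gadd45b, Btg2 and Myc among them, are also induced rapidly by growth factors or bacterial ligands.

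Gadd45a, Myc and Btg2 were at least 2-fold higher on the LPS+CPN+GGOH array, by 6.06-fold, 4.02-fold and 2.39-fold. None of the 9 measured genes was at least 2-fold lower. Cdkn1a had the lowest ratio and was 1.90-fold lower with GGOH. On their brightest probe sets the other 5, Cdkn1b, Gadd45b, Gadd45g, Mdm2 and Ccng1, had log2 ratios between -0.34 and 0.32. These lay inside the SD of 0.45 seen between probe sets of one gene on these arrays. Dimmer probe sets of Gadd45b (-0.68 and -0.90), Mdm2 (0.76) and Ccng1 (0.47) lay outside it. That SD leaves out variation between samples, which 1 array per group does not show. Over all 9909 genes above the floor on both arrays, 3.31% reached 2-fold in the higher direction and 1.52% in the lower one. Of the 17 probe sets of the 9 genes above the floor, 4 were past 2-fold and higher and none was lower, against 6.28% and 1.58% of all probe sets measured on at least 1 array. The median log2 ratio was 0.27 over the 9 genes and -0.01 over the 11518 genes above the floor on at least 1 array. The floor, a signal of 59.9, was the median of all non-control signals, and all 9 genes lay above it on both arrays.

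The 2 arrays also differed in markers of cell type and in RNA measures. All 14 macrophage markers with a probe set were above the floor on both arrays, with a summed signal of 230488 with LPS+CPN and 204057 with GGOH, a median log2 ratio of -0.22, and 1 marker (Itgam, log2 ratio 1.05) past 2-fold, which none was under 5 of the 10 other settings. Mesothelial and fibroblast markers had a summed signal of 1446 with LPS+CPN and 29567 with GGOH, and 11 of 13 measured markers were past 2-fold with GGOH (Col1a1, Col1a2, Col3a1, Dcn, Pdgfra, Pdgfrb, Sparc, Wt1, Msln, Krt19 and Lrrn4), or 5 with the floor at the 75th percentile. On the LPS+CPN array 11 of the 14 with a probe set were at the floor, Col1a1, Wt1 and Msln among them. Of 12 markers of other leukocytes, 11 were at the floor on both arrays, and S100a8 had signals of 4282 and 2216. The ratio of 3' to 5' signal was 2.44 for Actb and 1.98 for Gapdh on the LPS+CPN array, and 1.24 and 0.956 on the LPS+CPN+GGOH array. The part of these differences in the ratios below was not tested. In bulk RNA, fewer cells of a type and less RNA per cell cannot be told apart.

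**Figure D1:**
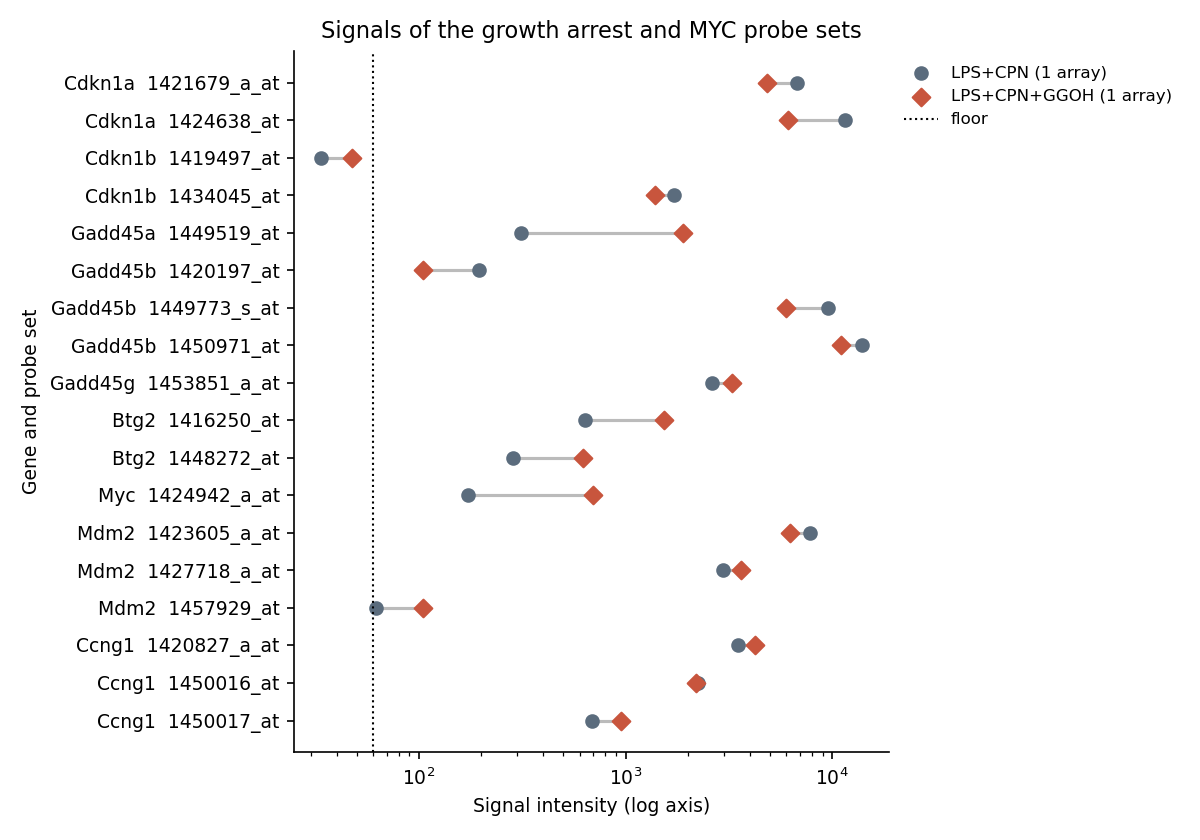
Signal intensity (log axis) of each of the 18 probe sets on the LPS+CPN array (circles) and the LPS+CPN+GGOH array (diamonds), with the floor of 59.9 as a dotted line. The widest gaps are those of Gadd45a (313 and 1896), Myc (172 and 693) and Btg2, while both Cdkn1a probe sets and all 3 Gadd45b probe sets lie lower with GGOH.

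Of the CDK inhibitors, Cdkn1a was measured by 2 probe sets and both were lower with GGOH. The brighter one had signals of 11577 with LPS+CPN and 6094 with LPS+CPN+GGOH, a log2 ratio of -0.93. The second, which recognises alternative transcripts of the gene, had 6793 and 4859, a log2 ratio of -0.48. Both therefore put p21 RNA higher in the sample without GGOH, by 1.90-fold and 1.40-fold, short of 2-fold in each case. Among the 9909 genes above the floor on both arrays, Cdkn1a ranked 204th from the lowest ratio, and 2.06% of genes had a ratio as low or lower. It was 2-fold lower under 1 of 10 other settings, in which each array was divided by its median (log2 ratio -1.09). Cdkn1b had signals of 1725 and 1382 on its brighter probe set, a log2 ratio of -0.32. Its other probe set was below the floor on both arrays, at 33.7 and 47.7, and gave no ratio.

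The sequence before the upstream of 2 annotated Cdkn1a starts, which lie 2790 bases apart, is shown because the window holds matches to the p53 half-site, the motif bound by the factor that drives p21. Here and below, each sequence is the 250 bases before a start site from RefSeq (GRCm38.p6), read 5' to 3' on the strand of the gene, with motif matches in capitals. Capitals in this window mark separate p53 half-site matches, 73 to 64 and 51 to 42 bases before the start, with unmarked bases between them. Only exact matches to the motif are marked.
Cdkn1a, chr17:29090729-29090978, plus strand: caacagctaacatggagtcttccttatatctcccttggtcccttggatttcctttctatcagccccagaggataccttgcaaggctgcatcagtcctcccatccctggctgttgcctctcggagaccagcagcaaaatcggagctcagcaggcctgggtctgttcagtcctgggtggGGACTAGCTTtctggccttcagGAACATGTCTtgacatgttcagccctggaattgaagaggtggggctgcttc
The window before the downstream start held GC boxes (GGGCGG) and no p53 half-site.

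The GADD45 genes did not share a direction. Gadd45a had a signal of 313 with LPS+CPN and 1896 with LPS+CPN+GGOH, on its only probe set. This log2 ratio of 2.60 was the highest of the 9 genes, and 0.474% of the 9909 genes above the floor on both arrays had a ratio as high or higher. Gadd45b, which is induced by NF-kB and TGF-beta signalling, was lower with GGOH on all 3 of its probe sets. The brightest had 14000.3 and 11040.1 (log2 ratio -0.34). The second had 9580 and 5961 (-0.68) and the third, much dimmer, 195 and 104 (-0.90). The second belongs to a class that can also match transcripts of other genes. Gadd45g, with 1 probe set, had signals of 2621 and 3279, a log2 ratio of 0.32.

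The promoters of Gadd45a and Gadd45b are shown because these paralogs differed most within the family. In the Gadd45a window the capitals mark a GC box (163 to 158 bases before the start, read on the opposite strand), a CCAAT box (86 to 82) and a p53 half-site (40 to 31). In the Gadd45b window they mark an E-box (CACGTG, the motif that MYC and MAX bind, 185 to 180), a GC box (158 to 153), CCAAT boxes (139 to 135 and 100 to 96) and a TATA box (TATAAA, 46 to 41).
Gadd45a, chr6:67037408-67037657, minus strand: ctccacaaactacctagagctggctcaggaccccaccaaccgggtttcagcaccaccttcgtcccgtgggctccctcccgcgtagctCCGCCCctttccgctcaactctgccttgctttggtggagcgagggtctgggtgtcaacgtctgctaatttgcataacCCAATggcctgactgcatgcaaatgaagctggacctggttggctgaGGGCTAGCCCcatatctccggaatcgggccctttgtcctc
Gadd45b, chr10:80929841-80930090, plus strand: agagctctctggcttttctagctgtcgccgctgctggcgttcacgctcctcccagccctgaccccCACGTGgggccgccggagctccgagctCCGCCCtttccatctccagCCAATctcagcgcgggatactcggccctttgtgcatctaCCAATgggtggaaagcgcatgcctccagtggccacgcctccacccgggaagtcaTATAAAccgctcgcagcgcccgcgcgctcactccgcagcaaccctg
The p53 half-site and the E-box were thus each found in 1 of these 2 windows. Gadd45g shared the E-box and the TATA box with Gadd45b, at 142 to 137 and 27 to 22 bases before its start.

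Btg2, whose protein recruits the deadenylase complex that shortens mRNA tails, was higher with GGOH on both probe sets. The brighter had signals of 640 with LPS+CPN and 1532 with LPS+CPN+GGOH, a log2 ratio of 1.26. The other had 284 and 623, a log2 ratio of 1.13. The probe sets differed by 0.13 on the log2 scale, less than the SD of 0.45 between probe sets of one gene. Among genes above the floor on both arrays, 2.09% had a ratio as high as that of Btg2 or higher. The Btg2 promoter is shown because it was the only 1 of 9 windows of these genes with a CRE half-site (TGACGT), the motif of CREB and ATF factors. Its match and the match on the opposite strand overlap in a full palindrome, 166 to 159 bases before the start. The other capitals mark CCAAT boxes (173 to 169 and 34 to 30) and GC boxes (115 to 110, 110 to 105 and 100 to 95), of which the first and second share a base.
Btg2, chr1:134079156-134079405, minus strand: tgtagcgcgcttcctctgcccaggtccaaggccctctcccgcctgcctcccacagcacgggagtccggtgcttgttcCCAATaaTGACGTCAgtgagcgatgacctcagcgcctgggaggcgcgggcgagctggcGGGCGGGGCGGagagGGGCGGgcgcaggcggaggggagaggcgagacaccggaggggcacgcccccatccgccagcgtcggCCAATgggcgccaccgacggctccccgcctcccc

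A window was found for 8 of the 9 measured genes, 9 windows in all with both Cdkn1a starts. None was found for Myc, so its promoter was not searched. On either strand, a p53 half-site was present for Cdkn1a, Gadd45a, Mdm2 and Ccng1, in 4 of 9 windows, against 7.13% of all 32851 windows of this length. An E-box was present in 2 of 9 windows against 6.02%, a CRE half-site in 1 against 6.47%, a TATA box in 2 against 12.4%, a GC box in 6 against 32.7% and a CCAAT box in 7 against 33.8%. No window held a CArG box, the motif of serum response factor, which was found in 1.47% of all windows. These matches describe letters only. Of the genes with a p53 half-site, Gadd45a was higher with GGOH and Cdkn1a was lower. Mdm2 and Ccng1 were near 0 on their brightest probe sets.

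Myc had a signal of 172 with LPS+CPN and 693 with LPS+CPN+GGOH on its only probe set, a log2 ratio of 2.01. In the order of ratios it was 80th of 9909 genes, so that 0.807% of genes had a ratio as high or higher. The LPS+CPN signal was low: with the floor at the 75th percentile, a signal of 376, only a bound remained, at a log2 ratio of at least 0.88. Of the genes that act on p53, Mdm2 gave no single direction. Its probe sets had signals of 7850 and 6235 (log2 ratio -0.33), 2954 and 3622 (0.29), and 62.1 and 105 (0.76), the last starting just above the floor. The sign for Mdm2 therefore depended on the probe set, and the median over the 3 was 0.29. Ccng1, which encodes cyclin G1, a partner of the phosphatase PP2A, had signals of 3495 and 4212 (0.27), 2241 and 2199 (-0.03), and 687 and 954 (0.47). Probe sets of both signs were thus seen for 2 of these genes, and for 55.1% of the 4166 genes with several probe sets above the floor.

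**Figure D2:**
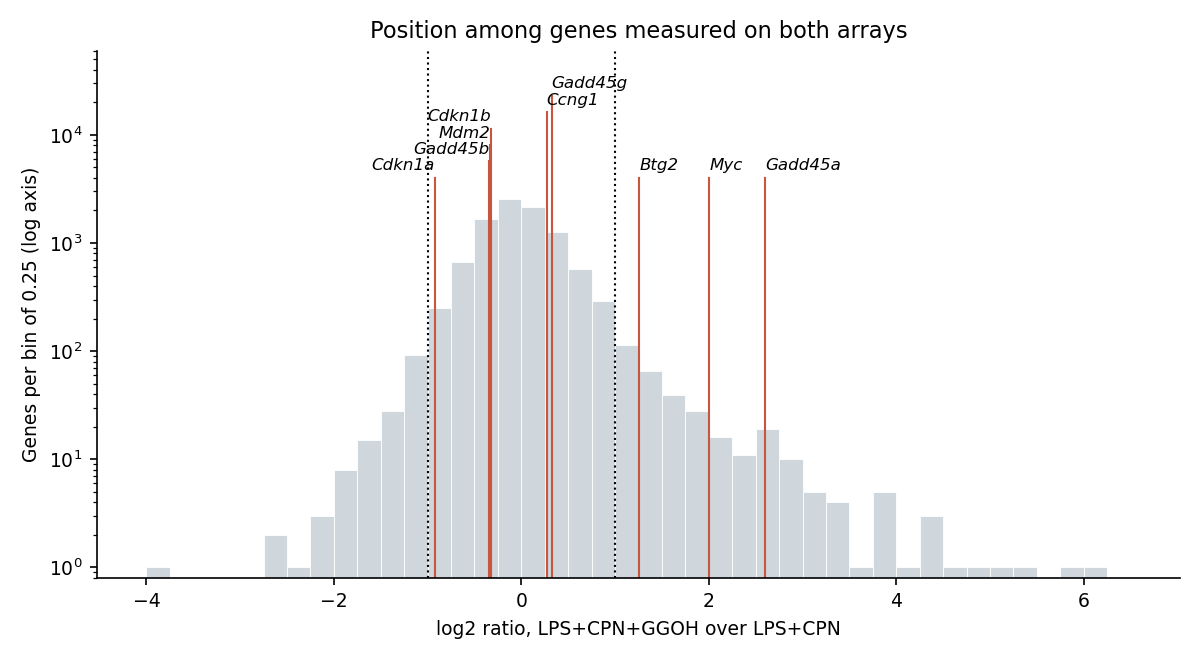
Number of genes (log axis) per bin of log2 ratio, LPS+CPN+GGOH over LPS+CPN, for the 9909 genes above the floor on both arrays, with red lines at the 9 genes and dotted lines at 2-fold. Gadd45a (2.60), Myc (2.01) and Btg2 (1.26) stand in the upper tail, Cdkn1a (-0.93) lies in the lower tail just short of 2-fold, and the other 5 lie in the central mass.

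With 2 arrays a gene has 1 ratio, so the genes most like each of these were taken as the nearest in the order of ratios. Beside Gadd45a stood Thbd (2.61) and Rcn3 (2.60) above and the immediate early gene Egr1 (2.58) and the Ras-related GTPase gene Rras2 (2.56) below. Around Myc stood Cldn12 (2.05), Fkbp9 (2.02), the inhibitory SMAD gene Smad7 (2.004) and Gpx7 (1.99). Around Btg2 stood the angiogenic factor gene Vegfa (1.28), Ska2 (1.27), the macrophage elastase gene Mmp12 (1.25) and Hebp2 (1.25). This order says nothing more than that the ratios were close in size.

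With the floor of 59.9, no regulator of p53 and none of its other targets reached 2-fold on its brightest probe set. However, 3 of these genes have a bound only and some counts differed with a lower floor. The shares past 2-fold over all 11518 measured genes, bounds included, were 5.50% higher and 1.66% lower. None of 14 p53 regulators passed it in either direction, and their median log2 ratio was 0.14. The kinase gene Chek1 has a bound only, at least 1.81-fold higher (51.9 and 108), and 1 regulator was at least 2-fold higher with the floor at the 25th percentile or with no floor. Among those above the floor on both arrays, the largest were those of the kinase gene Atm (0.63), the deubiquitinase gene Usp7 (-0.54) and the acetyltransferase gene Ep300 (-0.41), and the list's median was negative under 4 of 10 other settings, down to -0.19. Of 23 measured p53 targets other than the genes above, none passed 2-fold, and 15 had a ratio below 0 and 8 above. The median of these targets was -0.24, inside the quartiles of -0.28 and 0.29 over all 11518 measured genes. Of the targets above the floor on both arrays, Gtse1 (0.95) and Ccng2, a relative of Ccng1 (-0.89), lay nearest to 2-fold, followed by Pmaip1, the NOXA gene (-0.69). Under equal macrophage markers, a scaling that adds 0.22 to log2 ratios before the floor is applied, 2 of them were higher, and 1 was lower when each array was divided by its median. Perp (34.7 and 116, at least 1.94-fold higher) and Sfn (91.3 and 35.6, at least 1.52-fold lower) have bounds only. With the floor at the 25th percentile or with no floor, 2 targets of this list were at least 2-fold higher and 1 was lower. Dimmer probe sets of Sesn1 (log2 ratio 1.16), Rrm2b (1.13) and Aen (1.07) were past 2-fold, bounds included, at the floor of 59.9. The brightest probe sets of these genes gave 0.06, -0.37 and 0.47, and the lowest ratio of any target probe set was -0.89 (Ccng2).

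Among other CDK inhibitors, 1 of 5 measured was past 2-fold: Cdkn2b (p15), at least 2.54-fold higher, with signals of 34.8, below the floor, and 152. A floor at the 75th percentile left no gene of this list past 2-fold. The list's median was 0.23, with Cdkn2d at -0.50 and Cdkn1c (p57) at 0.10. None of the 3 measured relatives of Btg2 passed 2-fold, with Tob2 at -0.45, Btg1 at -0.28 and Tob1 at 0.04, a median of -0.28. Of 10 growth arrest specific and DDIT genes, 2 were at least 2-fold higher and none lower, with a median of 0.37. These were Ddit4, an inhibitor of mTOR signalling (1131 and 2775, log2 ratio 1.29), and Gas1, at least 2.19-fold higher with signals of 21.3 and 131. After quantile normalization or lowess, or with the floor at the 75th percentile, 1 gene of this list was past 2-fold. Of 6 GADD45 partners with a value, the kinase gene Cdk1 was higher (195 and 565, log2 ratio 1.53), a call lost with the floor at the 75th percentile. Pcna was at -0.17 and Map3k4 at 0.08, and the median of the list was 0.16. The 3 probe sets of Map3k4 ranged from -0.62 to 1.08.

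Genes of the p27 pathway differed in both directions. Cks1b, a cofactor of the ligase that degrades p27, was higher with GGOH on both probe sets. Its brighter probe set had 324 and 2152, a log2 ratio of 2.73, and the other gave 2.65. Foxo3, a transcription factor that activates the p27 gene, had 2132 and 761 (-1.49) on its brightest probe set, but its 3 probe sets ranged from -1.49 to -0.04 and their median was short of 2-fold. Of 8 genes in the list these were the only ones past 2-fold, and the median was -0.03, with Skp2 at 0.45. In the G1 cyclin and RB list, 2 of 17 were at least 2-fold higher and 1 lower, with a median of 0.17. The cyclin D genes Ccnd1 (224 and 485, log2 ratio 1.12) and Ccnd2 (111 and 252, 1.18) were higher, and every measured probe set of each was past 2-fold, bounds included, up to 2.29 and 1.85. Ccne1, whose complex with its kinase is inhibited by p21 and p27, was lower (792 and 273, -1.54). The count of higher genes in this list depended on the settings: it was 0 after quantile normalization, with the pseudocount or with the floor at the 75th percentile, and 1 when each array was divided by its median.

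Of the MYC and MAX network, 2 of 11 measured genes were at least 2-fold lower and none higher, with a median of -0.17. Mxd1, which competes with MYC for MAX, had signals of 1624 and 551 (log2 ratio -1.56), and its 3 probe sets ranged from -1.63 to -0.08. Mxd4 had 197 and 86.3 (-1.19), with 4 probe sets from -1.19 to 0.05. Taking a gene's median probe set, the pseudocount, the higher floor or equal macrophage markers each left 1 of the 2 past 2-fold. Max itself was at -0.06 and Mnt at -0.50. Mxi1 was at 0.03 on its brighter probe set, but its other one gave 1.19. Of 24 MYC targets, 17 had a ratio above 0 and 7 below, and the median was 0.46. Over all measured genes the median was -0.01 and the upper quartile 0.29. At least 2-fold higher were 3 of the 24 MYC targets, and none was 2-fold lower. The 3 were Nop58 (358 and 973, 1.44) and Nolc1 (224 and 543, 1.28), of the nucleolus, and the spermidine synthase gene Srm (609 and 1249, 1.04). The other measured probe set of Nolc1 gave 0.40. Nucleolin (Ncl) was at 0.51, with 3 probe sets from 0.51 to 1.76, while the lactate dehydrogenase gene Ldha was at -0.32. The median of this list stayed between 0.29 and 0.67 under the 11 settings, and 6 of its genes were at least 2-fold higher under equal macrophage markers. That number was 2 with division by the median, the pseudocount, the floor at the 75th percentile or a gene's median probe set.

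Proliferation markers were higher on the LPS+CPN+GGOH array, where 9 of 10 measured passed 2-fold, with a median of 1.73. These were Ube2c, Top2a, Rrm2, Ccna2, Bub1, Plk1, Ccnb2, Mki67 and Birc5, and 5 of the 10 were at the floor with LPS+CPN and are bounds. The summed signal of the 12 markers was 1026 with LPS+CPN and 3876 with GGOH. With the floor at the 75th percentile 1 gene of this list was at least 2-fold higher. Mesothelial and fibroblast markers were also higher there, as given above, and which cells carried the signals of Gadd45a, Myc, Btg2 or the cycling genes was not tested.

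**Figure D3:**
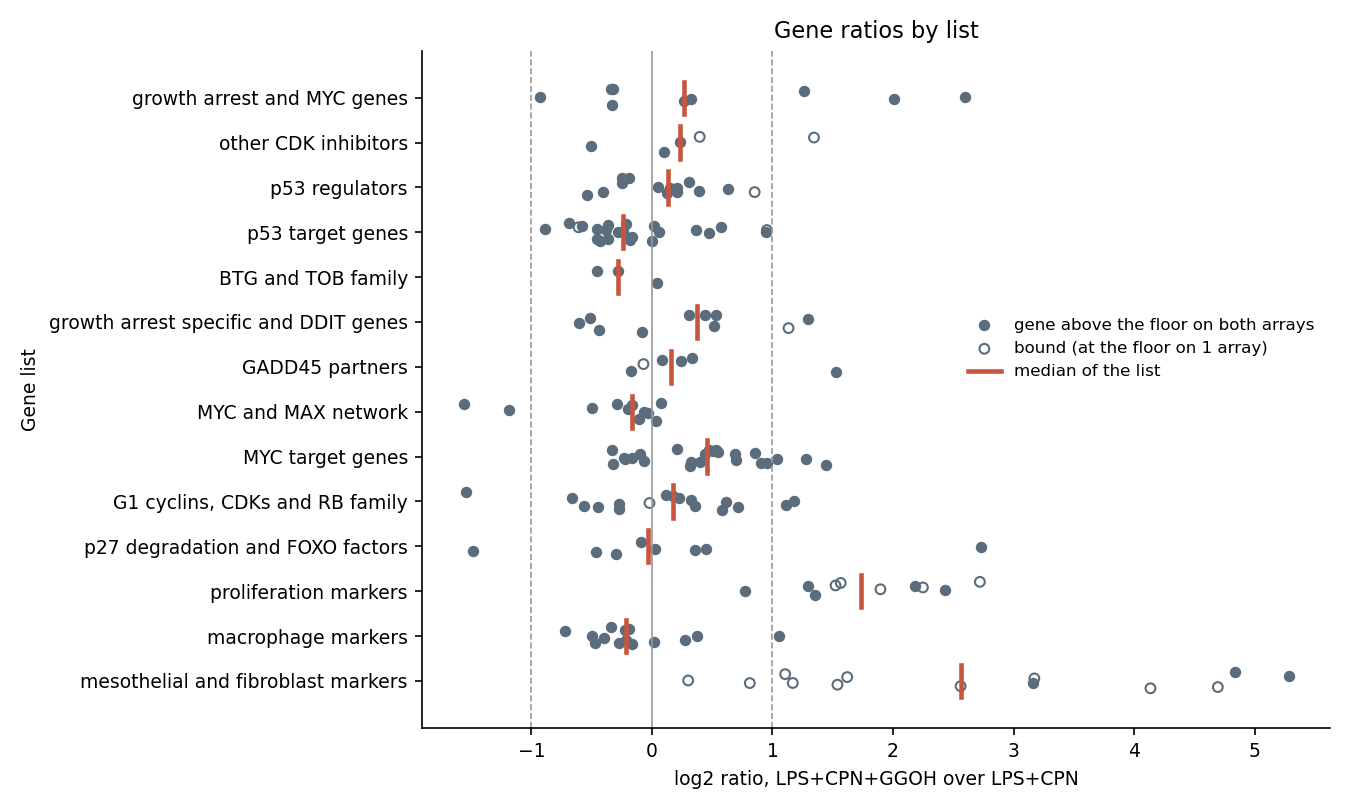
log2 ratio, LPS+CPN+GGOH over LPS+CPN, of each measured gene by list, with filled points for genes above the floor on both arrays, open points for bounds, red bars for list medians and dashed lines at 2-fold. The medians of the p53 targets (-0.24) and MYC targets (0.46) lie on opposite sides of 0, while proliferation markers (1.73) and mesothelial and fibroblast markers (2.56) lie farther to the right.

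**Figure D4:**
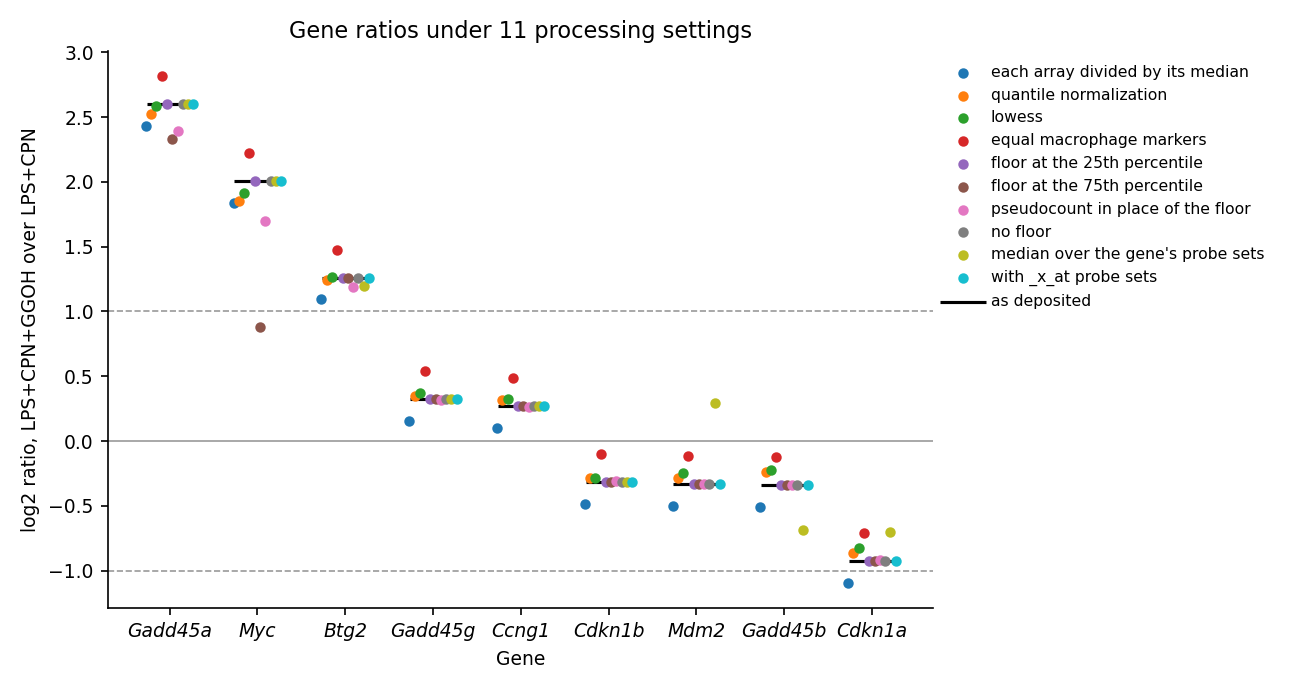
log2 ratio of each of the 9 genes as deposited (black bars) and under 10 other settings (points), with dashed lines at 2-fold. Gadd45a stays between 2.34, a bound with the floor at the 75th percentile, and 2.82. Btg2 stays between 1.09 and 1.48, Myc drops to 0.88, also a bound, at that floor, and Mdm2 turns positive with the median over its probe sets.

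Across the settings, Gadd45a and Btg2 were at least 2-fold higher under all 11 and Myc under 10. A lower floor, no floor and keeping the _x_at probe sets could not change the ratio of any gene described here. The median over probe sets could not change that of Gadd45a or Myc, with 1 probe set each. Cdkn1a was below 0 under all 11, between -1.09 and -0.70. Gadd45b (-0.68 to -0.12) and Cdkn1b (-0.49 to -0.10) also stayed below 0, and Gadd45g (0.16 to 0.54) and Ccng1 (0.10 to 0.49) above it, all short of 2-fold. Of the list medians, those of the GADD45 partners, the G1 cyclin and RB list and the MYC and MAX network turned sign under 1 of the 10 other settings. That of the p27 list did so under 3. The medians of the p53 targets and MYC targets kept their sign, but that of the p53 targets ranged from -0.41 to -0.008. The value nearest to 0 came under equal macrophage markers.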

How the data were processed

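The authors deposited intensity values, not logged, for 45101 probe sets on each array, 64 of them controls. Per the submitters' processing notes MAS5 was used, and the sources used here state neither its version nor its scaling target. With 2% of probe sets trimmed at each end, the mean signal came to 500.0 on both arrays, and no further scaling was applied. Medians were 56.7 (LPS+CPN) and 63.7 (LPS+CPN+GGOH). With 1 array per group, the number of arrays limits the precision.

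Gene names came from the platform annotation, with symbols checked by gene ID against RefSeq (34741 of 34945 found, 0 changed). Another 932 had several symbols and 9160 none. After 2038 _x_at probe sets were left out, 18093 genes had a value, taken from the probe set whose mean log2 signal was highest. Signals below the floor (50th percentile) were set to it, and a gene at the floor on 1 array has a bound. All genes of the list, every gene of the other lists past 2-fold and otherwise up to 3 with the largest ratios were to be named, and a few others were added after their values were seen. The genes and all lists were chosen with earlier results of these data known. The steps were tested on simulated data, with changes added only to genes above the floor on both arrays. Its noise was smaller than the spread between probe sets on these arrays, so it checks the steps and not the 2-fold calls. Python 3.11.15, numpy 2.4.6, pandas 2.3.3 and statsmodels 0.14.6 (lowess, span 0.4) were used.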

Additional observations from a re-analysis of the deposited data

How the results depend on the processing

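Another 10 settings were compared: 4 scalings, 4 treatments of low signals, and 2 choices of probe sets. Values are called moved past a shift of 0.45, the SD between probe sets of one gene, and counts past a change of 1.5 times. Of 140 values and counts for the genes described and for all genes, 128 did not move. Part of this was fixed in advance. The ratios of the genes described could not change with a lower floor, no floor or the _x_at probe sets kept. Division by the median and equal macrophage markers shift each of these ratios by less than 0.45, so neither could move them. When each array was divided by its median, 1 of the 9 genes, Cdkn1a, was at least 2-fold lower, where none was as deposited. With the floor at the 75th percentile the log2 ratios of Myc (0.88) and Gadd45a (2.34) were bounds, because their LPS+CPN signals fell below that floor. With the median over its probe sets the log2 ratio of Mdm2 was 0.29. As deposited, 634 genes were at least 2-fold higher and 191 lower. The lower count became 332 with division by the median, 307 with quantile normalization and 89 under equal macrophage markers. It was 1127 (1658 higher) with the floor at the 25th percentile, 88 (126 higher) at the 75th, and 2150 (2551 higher) with no floor. The share of higher genes among those past 2-fold was 76.8% as deposited and 61.4% with division by the median, a scaling that moved the median log2 ratio over genes by -0.16. It was 62.1% with quantile normalization, 66.4% with lowess, and 91.1% with equal macrophage markers, which moved it by 0.21. For the other gene lists, 39 of 420 medians and counts moved. No paired analysis was possible because each group has 1 array. Low signals limit the ratios that rest on a bound, and those of Myc and Gadd45a at the higher floor.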
